A study of Mus musculus with 9 samples.

Results

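The comparison set uterine RNA after injection of medium in which human embryos had been cultured against uterine RNA after medium that had held no embryo. It used all 9 libraries of the series. There were 3 libraries after unconditioned embryo culture medium, 3 after pooled medium of 9 developmentally competent embryos and 3 after pooled medium of 18 arrested embryos. Every group, controls included, came from immature C57BL/6 females primed with 1 mg progesterone and with β-estradiol at 10 mg/kg per day over 3 days, and received 50 µl of medium in the uterine horns; the labels give their age as 25 days, where the design text gives 25 days for the injection and 21 days for the RNA. Both embryo media were weighted equally and set against control, to find changes that the media share. The sources used here do not say whether the libraries of a group are separate animals, or how long after injection uteri were taken. A p-value here therefore reflects the spread from sample to sample alone, and that spread may be technical. Embryo medium was pooled, so the spread from embryo to embryo is not measured by it.

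Before implantation an embryo secretes proteins, RNA and proteases into the fluid of the uterine lumen, and the luminal epithelium is the layer that meets them first. In the hormone-primed uterus, progesterone and estradiol acting through Pgr and Esr1 open a short receptive window, in which the cytokine Lif, the growth factor Hbegf and prostaglandins made by Ptgs2 take part. Serine proteases in the lumen can open the epithelial sodium channel, and chaperones such as Hspa5 and Hspa8 answer protein folding stress. A response to embryo medium in general would appear as genes moved the same way by both media.

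Sequencing depth, estimated from coverage, ran from 10947000 to 19784000 fragments per library. Exon depth, the FPKM lying over the exon bases of a gene whichever transcript they were assigned to, was set beside each gene value, since Cufflinks divides fragments among overlapping transcripts and can list a transcript at 0. Of 13333 genes averaging 1 FPKM or more, 2433 (18.2%) were listed at 0 in at least 1 library. Arrested library 3 lay far from the rest in a principal component analysis, with a score of 90.7 on the first component (16.6% of variance) against -25.1 to 4.87 in the other 8 libraries.

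Few genes separated embryo medium from unconditioned medium. Of the 13333 genes, 5 (0.0375%) passed the limma threshold on adjusted p, 0.05. After embryo medium 3 of them were higher (0.0225%) and 2 lower (0.015%). They were Ube2v1, Sprr2g and Snord23 on the higher side and Ubl4 and BC037034 on the lower. Ube2v1, Sprr2g, Snord23 and BC037034 each had 1 or 2 groups with all libraries at 0, and passed the filter on low values only through the libraries where they are high, so their p-values are no independent support. At an unadjusted p under 0.05 there were 427 genes (3.2%), 191 higher (1.43%) and 236 lower (1.77%). That share is below what this cut-off would be expected to give if no gene differed. The median difference over all genes was -0.02 on the log2(FPKM + 1) scale, used for every difference below, a scale that understates change in genes of low FPKM. For a gene of median precision the 95% interval, not adjusted for the number of genes, reached 0.57 to either side. Changes smaller than that were mostly not detectable with 9 libraries. The adjusted threshold is stricter, so larger changes could be missed too. The count of 5 was 16, 19 and 14 without control libraries 1, 2 and 3, 8 without any 1 competent library, and 9, 16 and 20 without arrested libraries 1, 2 and 3. The tissue was taken whole, so fewer cells of a type and less RNA per cell cannot be told apart.

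Of the 5 genes, 3 differed from control with both media and 2 were above 0 after arrested medium alone. Ube2v1, Ubl4 and BC037034 differed between arrested and competent medium by -0.17, 0.17 and 0.00, with limma adjusted p of 0.917, 0.724 and 1. Sprr2g and Snord23 were listed at 0 in every competent library, so their fitted differences between the media, 6.01 and 8.37 (limma adjusted p = 4.9e-06 and 9.99e-08), depend on the pseudocount and are no folds. The Snord23 value stands for 1 fragment in each arrested library against 0. Of all genes, 0.135% passed in that contrast.

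**Figure D1:**
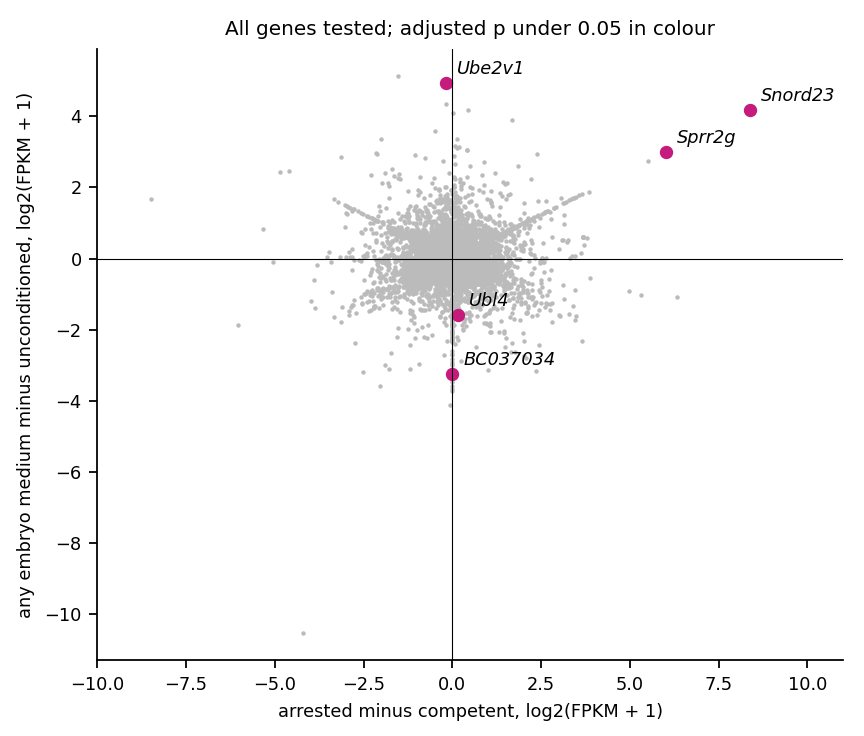
Each grey point is 1 of the 13333 genes tested, with the arrested minus competent difference on the horizontal axis and the average of both embryo media minus unconditioned medium on the vertical axis, both in log2(FPKM + 1). The 5 genes past the threshold are in colour: Ube2v1, Ubl4 and BC037034 lie near 0 on the horizontal axis, and Sprr2g and Snord23 lie at 6.01 and 8.37.

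Ubl4 encodes a small ubiquitin-like protein of the BAG6 complex, which hands newly made tail-anchored membrane proteins to the endoplasmic reticulum. Its gene lies on the minus strand of chromosome X (NCBIM37 chrX:71611057-71614012). Gene values were 74.8, 71.0 and 88.0 FPKM in controls, 25.1, 21.7 and 24.8 after competent medium and 30.3, 26.9 and 23.7 after arrested medium. All 6 embryo-medium libraries lay below all 3 controls. The difference was -1.58 ± 0.12 (SE; limma adjusted p = 0.0039), with -1.66 for competent and -1.50 for arrested medium, which share the controls. With voom on estimated fragments, a limma method chosen after seeing the data, the difference was -0.02 (adjusted p = 0.999), and with a replicate block the limma adjusted p was 0.060. Exon depth was 27.0, 26.1 and 27.1 in controls, 21.9, 19.0 and 21.6 after competent medium and 26.4, 23.5 and 20.7 after arrested medium. On that measure the groups overlapped, through arrested library 1, and the difference was -0.27 ± 0.09 (limma adjusted p = 1).

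The difference in Ubl4 lay in transcripts that are not annotated as coding. ENSMUST00000125914, a processed transcript of 369 bases in 3 exons, stood at 51.7, 48.4 and 50.9 FPKM in controls and was listed at 0 in all 6 embryo-medium libraries. Its control values rested on an estimated 87.5, 113 and 108 fragments. A retained-intron transcript was at 18.5 FPKM in control library 3 and at 0 elsewhere. The coding transcript ENSMUST00000155676 stood at 23.1, 22.6 and 18.7 FPKM in controls, 25.1, 21.7 and 24.8 after competent medium and 30.3, 26.9 and 23.7 after arrested medium. Taken alone, it was 0.23 ± 0.12 higher after embryo medium (limma adjusted p = 0.997). An exon of the processed transcript holds 62 bases that lie outside the exons of the coding transcript. The call of Ubl4 turns on the FPKM assigned to the processed transcript, and reads over those bases were not examined. Overlap of those bases with the other Ubl4 transcripts is not given here. That exon (NCBIM37 chrX:71613136-71613310, minus strand) is shown with those 62 bases in capitals.
Ubl4 exon of ENSMUST00000125914: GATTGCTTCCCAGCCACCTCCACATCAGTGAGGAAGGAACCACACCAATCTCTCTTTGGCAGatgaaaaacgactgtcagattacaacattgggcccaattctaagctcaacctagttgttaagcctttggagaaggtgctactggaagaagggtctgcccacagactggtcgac

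Ube2v1 encodes a catalytically inactive relative of the ubiquitin-conjugating enzymes that works with Ube2n to build lysine-linked ubiquitin chains. Its gene is on the minus strand of chromosome 2 (NCBIM37 chr2:167433138-167457595). It was listed at 0 FPKM in all 3 controls, at 20.8, 38.4 and 39.4 after competent medium and at 15.2, 38.3 and 36.8 after arrested medium. Every embryo-medium library lay above every control, and among the genes tested it was the only one at 0 in all controls and above 0 in all 6 other libraries. The fitted difference was 4.94 ± 0.33 (limma adjusted p = 0.0016), a value that depends on the pseudocount since controls are at 0. A second gene identifier, named Tmem189 in the annotation, covers nearly all of Ube2v1 on the same strand (NCBIM37 chr2:167433350-167486996). It stood at 27.3, 28.9 and 43.4 FPKM in controls, 18.4, 0 and 0 after competent medium and 12.02, 10.98 and 0 after arrested medium. It was high in controls, where Ube2v1 was at 0. The sum of both was 27.3, 28.9 and 43.4 in controls, 39.2, 38.4 and 39.4 after competent medium and 27.2, 49.3 and 36.8 after arrested medium, with overlapping groups. Exon depth of Ube2v1 was 16.8, 17.7 and 26.7, then 23.4, 25.4 and 29.6, then 18.8, 24.9 and 24.3 in the same order of groups. The groups overlapped there too (0.27 ± 0.17, limma adjusted p = 1).

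BC037034, a protein-coding gene still named for its cDNA clone, has 2 identifiers over nearly the same bases of chromosome 5 (minus strand). The called one (NCBIM37 chr5:138700886-138705274) stood at 9.14, 5.08 and 13.0 FPKM in controls and was listed at 0 in all 6 embryo-medium libraries, the only gene tested with that pattern. The fitted difference was -3.25 ± 0.30 (limma adjusted p = 0.010). The other identifier stood at 7.04, 19.0 and 0 FPKM in controls, 14.2, 21.8 and 14.96 after competent medium and 16.2, 16.7 and 23.4 after arrested medium. Their sum was 16.2, 24.1 and 13.0 in controls against 14.2 to 23.4 in the 6 embryo-medium libraries, so the groups overlapped. Exon depth differed by -0.12 ± 0.20.

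**Figure D2:**
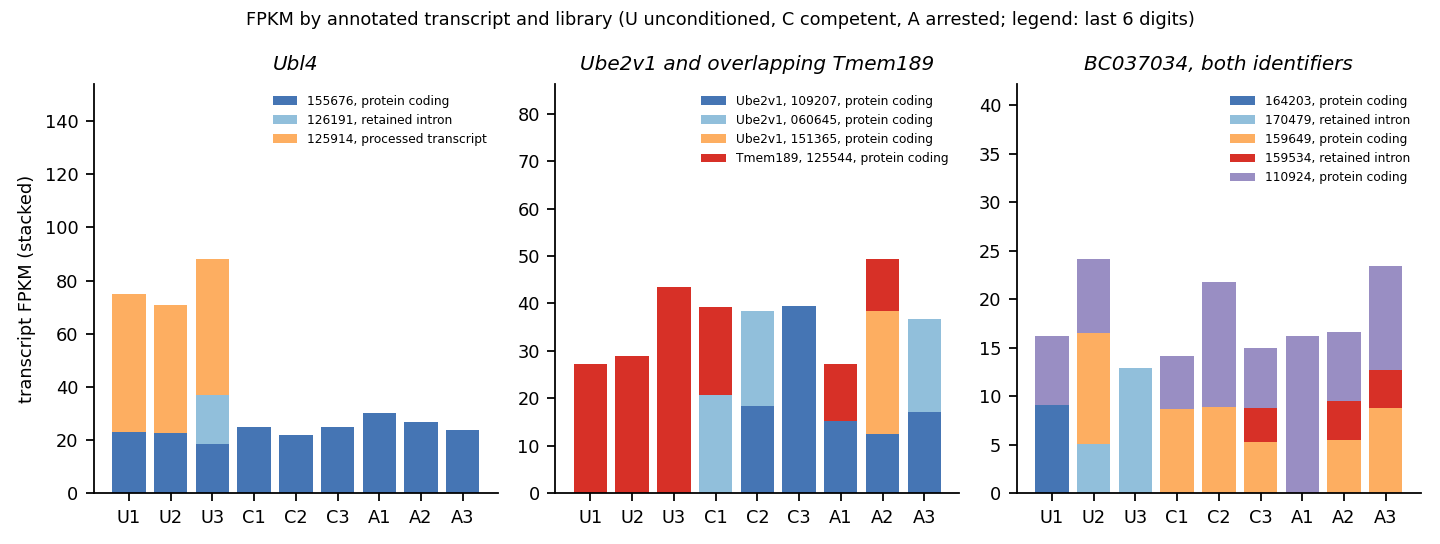
Stacked bars give FPKM by annotated transcript in each library for Ubl4, for Ube2v1 with the overlapping Tmem189 identifier, and for both BC037034 identifiers. The total is lower after embryo medium for Ubl4 alone, by the processed transcript of about 50 FPKM; at the other loci the totals overlap and the transcript that carries them differs between libraries.

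Sprr2g belongs to the small proline-rich proteins, cornified envelope precursors that estradiol induces in uterine epithelium. It was listed at 0 FPKM in all controls and all competent libraries and at 56.7, 64.2 and 70.8 after arrested medium (n = 3). These values rested on an estimated 381, 385 and 481 fragments. Exon depth was the same within rounding, with 0 in the other 6 libraries. It restates the FPKM of the only annotated Sprr2g transcript, so it is no second measure here. The average over both media was 3.01 ± 0.16 (limma adjusted p = 0.00039), all of it from arrested medium. The call was lost in a fit of 2 groups, 6 libraries against 3 (adjusted p = 0.9997), and with voom on estimated fragments (adjusted p = 0.999). The Sprr2 genes form a cluster of related copies on chromosome 3. No stretch of 50 bases of the Sprr2g transcript occurs in the 12 other Sprr2 transcripts of the annotation, and the longest shared run was 35 bases, with Sprr2j-ps. That search counted exact matches only, and assignment of fragments from related copies to Sprr2g was not tested. The 12 Sprr2 genes together, Sprr2g included, stood at 584 to 1020 FPKM in controls, 1001 to 1757 after competent and 243 to 599 after arrested medium. The coding sequence of Sprr2g (NCBIM37 chr3:92177837-92179151 for the gene, plus strand) shows how far it can be told from a close copy, with the 30 of 231 bases that differ from Sprr2i at the same position in capitals.
Sprr2g coding sequence: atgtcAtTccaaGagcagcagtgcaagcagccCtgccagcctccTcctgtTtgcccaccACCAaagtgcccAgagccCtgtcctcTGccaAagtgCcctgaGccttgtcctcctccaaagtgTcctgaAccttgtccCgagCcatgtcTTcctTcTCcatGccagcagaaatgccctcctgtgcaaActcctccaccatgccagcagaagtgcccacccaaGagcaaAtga

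Snord23 is a small nucleolar RNA, of the class that guides ribosomal RNA modification, and lies within Gltscr2 on the minus strand of chromosome 7 (NCBIM37 chr7:16524111-16524219). It was listed at 318.5, 357.4 and 315.4 FPKM in arrested libraries 1, 2 and 3 and at 0 in the other 6. By the deposited interval each of those values stood for 1 fragment of a transcript of 109 bases. With 0 or 1 fragment in every library no fold is given. The fitted average over both media, set by the pseudocount, was 4.19 ± 0.13 (limma adjusted p = 8.2e-06). In a fit of 2 groups the limma adjusted p was 0.9997, and voom on estimated fragments gave an adjusted p of 0.999. That estimate set a minimum length for short transcripts, so voom did not use the 1 fragment of the interval for Snord23. The sequence is shown for its length, with TGATGA at base 8 and CTGA at base 101, the letters of the C and D boxes of this class, in capitals.
Snord23: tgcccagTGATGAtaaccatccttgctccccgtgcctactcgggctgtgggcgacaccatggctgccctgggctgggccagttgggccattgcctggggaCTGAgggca

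**Figure D3:**
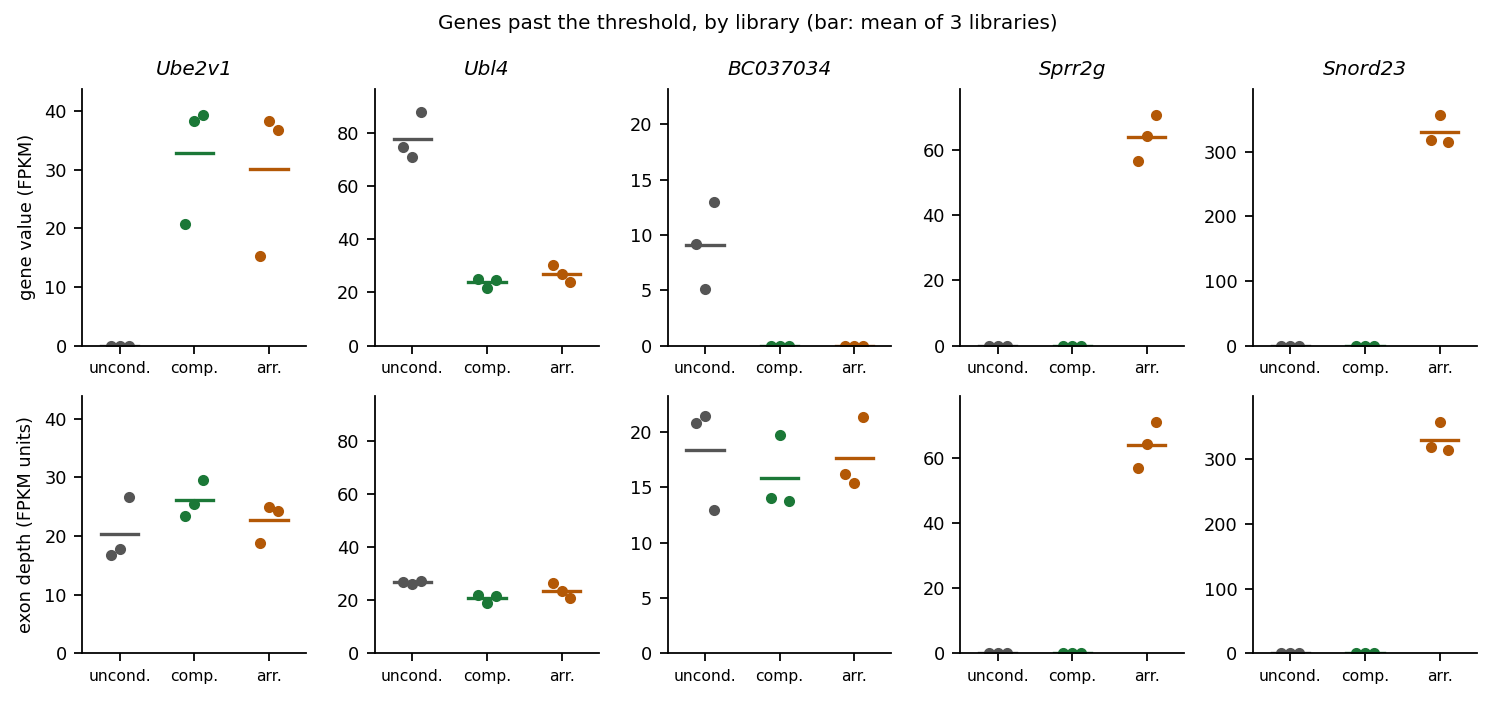
Gene value in FPKM (upper row) and exon depth in FPKM units (lower row) of the 5 genes past the threshold, 1 point per library and a bar at the mean of 3. Upper and lower rows differ for Ube2v1, Ubl4 and BC037034, where exon depth overlaps between the groups, and match for Sprr2g and Snord23, which are at 0 outside arrested medium. Exon depth of Sprr2g and Snord23 restates the FPKM of their only annotated transcript.

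The same pattern was looked for in single transcripts. Of 19969 transcripts with a mean of at least 1 FPKM, 11 were above 0 in all controls and at 0 in all 6 embryo-medium libraries, and 6 were the reverse. The 17 transcripts belong to 16 genes, and exon depth of the gene overlapped between the groups for all 17. Stat2, the interferon signalling factor, accounted for 2 of them, chosen for mention after their values were seen. Its transcript ENSMUST00000164569 was at 3.42, 1.36 and 5.95 FPKM in controls and 0 after embryo medium, and ENSMUST00000085708 was at 0 in controls and between 2.54 and 8.17 in the 6 other libraries. Neither the gene value of Stat2 (-0.53 ± 0.31) nor its exon depth (-0.10) passed the test. Short coding transcripts of Insig2, which restrains cholesterol synthesis, and of Chrac1, a chromatin accessibility factor, stood at 29.4 to 32.5 and 23.6 to 33.1 FPKM in controls and at 0 after embryo medium.

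Beyond the threshold, the gene values of 178 genes (1.34%) did not overlap between the 6 embryo-medium and 3 control libraries, 69 higher (0.518%) and 109 lower (0.818%). With no group difference, the order of 6 and 3 libraries alone would be expected to separate at least that share. The genes named from this set are therefore description, not a response shown. By exon depth the share was 1.32% of the 15033 genes that reach a mean of 1 on that measure, and by estimated fragments, scaled to the library total, 1.33% of the 13333. For 62 of the 178 exon depth did not overlap either, and for 57 no measure did, 17 of them higher (0.128%) and 40 lower (0.3%). None of the genes first named from here on passed the threshold with all libraries, and their limma adjusted p were then between 0.638 and 0.999.

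Of the non-overlapping lower genes that did not pass the threshold, Gtf3c2, a subunit of the TFIIIC factor that recruits RNA polymerase III, had the smallest p. It stood at 32.4, 43.9 and 35.4 FPKM in controls, 20.3, 23.8 and 20.3 after competent medium and 18.7, 21.3 and 23.1 after arrested medium. The difference was -0.77 ± 0.14 (limma adjusted p = 0.638), and that of exon depth, also without overlap, -0.49 ± 0.11 (limma adjusted p = 1). Rps6kb2, an S6 kinase downstream of mTORC1, was at 8.92, 8.63 and 10.5 FPKM in controls and from 5.59 to 7.51 in the 6 others (-0.47 ± 0.13). Its exon depth fell into 3 separate ranges, 6.07 to 6.59 in controls, 4.55 to 4.74 after competent and 4.96 to 5.14 after arrested medium (-0.34 ± 0.07, limma adjusted p = 1). Ceacam2, a cell adhesion receptor of epithelia, was at 15.4, 15.2 and 10.3 FPKM in controls, 0 in all 3 competent libraries and 9.99, 0 and 5.91 in the arrested ones. Its limma adjusted p was 0.021 without arrested library 2, and 0.999 with all libraries.

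Other lower genes were lower in gene value and less so in exon depth. Pex19, the chaperone of peroxisomal membrane proteins, was at 120, 112 and 119 FPKM in controls, 34.7, 33.6 and 34.5 after competent and 83.9, 97.1 and 29.1 after arrested medium (-1.32 ± 0.34). A retained-intron transcript of 368 bases carried most of that difference, at 71.9 to 89.2 FPKM in controls and at 0 in the 3 competent libraries and in arrested library 3, while the main coding transcript stayed between 26.4 and 34.7 in all 9. Without arrested library 3 the limma adjusted p of Pex19 was 0.0075. Exon depth differed by -0.20 for Pex19, -0.13 for Fam114a2 (-0.77 in gene value), -0.26 for Gps1, a COP9 signalosome subunit (-0.51), and 0.03 for Slc17a5, the lysosomal sialic acid exporter (-0.90). Cys1, a protein of the primary cilium (-0.86 and -0.34), and Zgpat, a zinc-finger repressor of transcription (-1.11 and -0.65), were lower on both measures, with overlap in exon depth.

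On the higher side, Entpd5, a nucleotidase of the endoplasmic reticulum that supports glycoprotein folding, stood at 7.99, 8.004 and 8.78 FPKM in controls, 10.4, 10.7 and 12.4 after competent medium and 13.7, 14.5 and 20.0 after arrested medium. No library of either medium overlapped the controls in gene value (0.63 ± 0.15, limma adjusted p = 0.999) or in exon depth (0.51 ± 0.16). Srsf9, a splicing factor, was at 29.4, 33.9 and 47.6 FPKM in controls and at 48.3 to 62.9 in the 6 others (0.61 ± 0.15), with overlapping exon depth (0.17 ± 0.12). Wdr8, a WD-repeat protein of the centrosome, went from 4.67 to 5.45 FPKM in controls to 7.94 to 10.3 after embryo medium (0.68 ± 0.14), with no like difference in exon depth (0.04 ± 0.13). With assembled transcripts added, Wdr8 differed by -0.54. Mettl9, a methyltransferase, and Vps37a, of the ESCRT-I sorting complex, were 0.47 ± 0.12 and 0.59 ± 0.16 higher, and 0.16 and 0.28 in exon depth. Kif22, a chromosome-binding kinesin, was at 0.658, 0 and 0 FPKM in controls, 6.43, 7.87 and 11.03 after competent and 0.973, 5.74 and 1.78 after arrested medium (2.23 ± 0.41). Fggy, a carbohydrate kinase, ranged from 0 to 4.10 FPKM in controls and from 6.40 to 35.1 after embryo medium, while its exon depth overlapped.

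**Figure D4:**
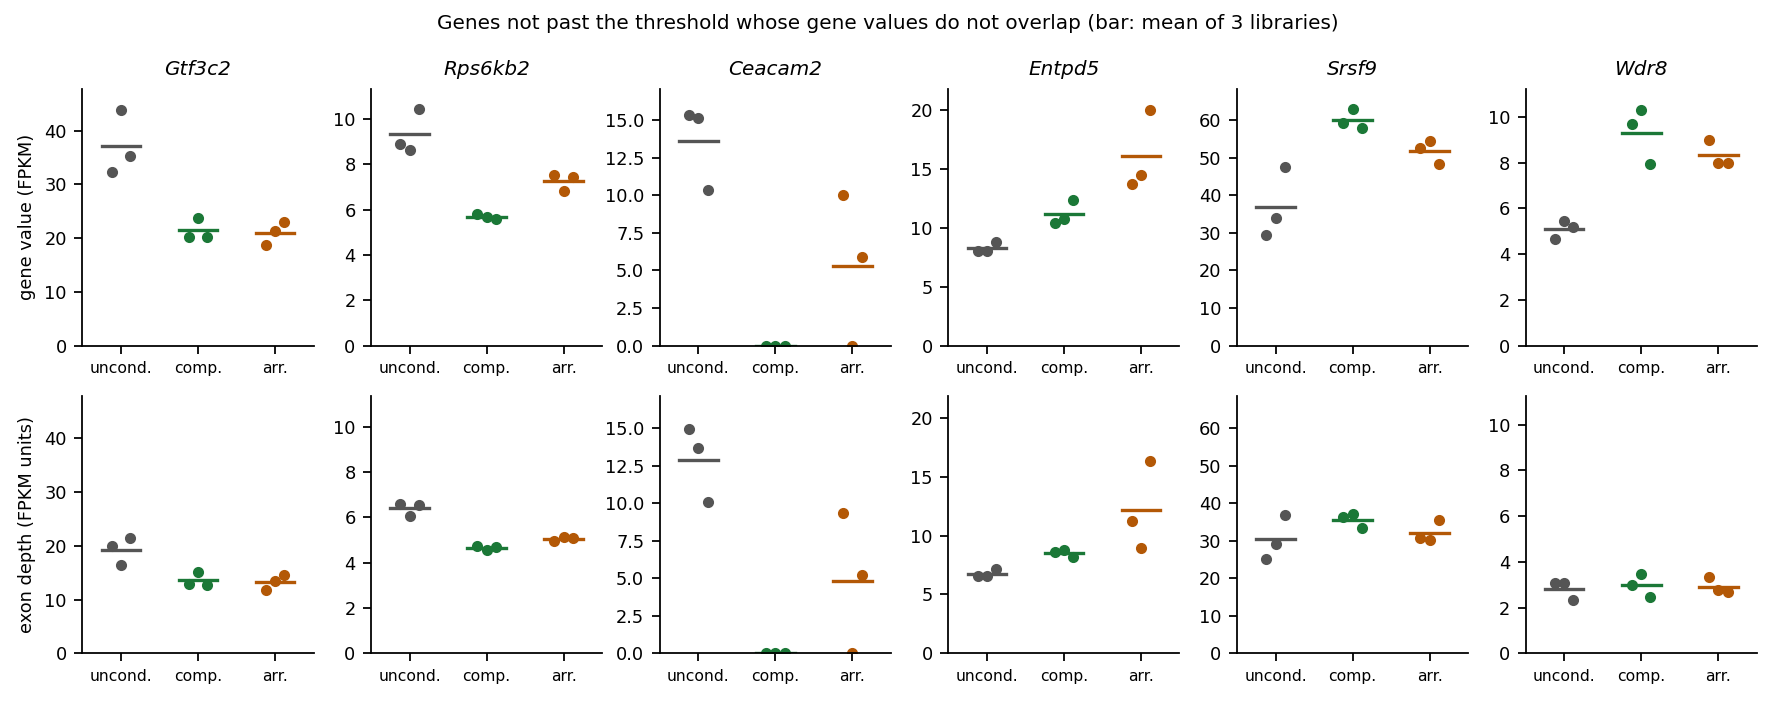
Gene value in FPKM (upper row) and exon depth in FPKM units (lower row) for 6 genes that did not pass the threshold but whose gene values do not overlap, 1 point per library and a bar at the mean of 3. Gtf3c2, Rps6kb2, Ceacam2 and Entpd5 are separated in both rows, whereas Srsf9 and Wdr8 overlap in exon depth.

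Pathway genes were read from 24 lists, chosen with earlier results of these data known. They held 471 tested genes, of which 0 passed the limma threshold and 12 (2.55%) had an unadjusted p under 0.05, beside 3.2% of all genes. With voom on estimated fragments the count past the threshold was also 0. Gene values of 1 of the 471 did not overlap, beside 1.34% of all genes. This was Asns, the asparagine synthetase of the integrated stress response, at 10.5 to 12.3 FPKM in controls and 7.89 to 10.2 after embryo medium (-0.34 ± 0.13), with exon depth at -0.09. The list medians lay between -0.14 and 0.71, beside -0.02 over all genes, and 22 of the 24 were within 0.2 of 0.

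Cell division genes had the highest median of the pathway lists, and the media lay apart in it. All 28 mitosis genes had a positive difference, beside 6152 of the 13333 genes tested, and 3 had a limma p under 0.05, beside 1.43% of all genes in that direction, namely the kinases Aurka (1.35 ± 0.49) and Cdk1 (1.04 ± 0.39) and the anaphase activator Cdc20 (2.35 ± 0.91). Their median was 0.71 for both media together, 1.36 for competent and -0.01 for arrested medium. The arrested libraries did not lie together: the summed FPKM of the list was 74.3, 301 and 105 in arrested libraries 1, 2 and 3, 111 to 155 in controls and 297 to 554 after competent medium. On that sum arrested library 2 lay within the competent range. By the list mean of log2(FPKM + 1), centred for each gene, it lay below that range, at 0.46 against 0.52 to 1.37. The 20 DNA replication genes had medians of 0.26, 0.69 and -0.10 in that order, with 18 above 0. Estradiol-responsive genes had a median near 0 (-0.05) that joined 0.51 for competent and -0.53 for arrested medium. For these 3 lists the average of the media does not describe either medium, and the lists of each medium are measured against the same controls.

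**Figure D5:**
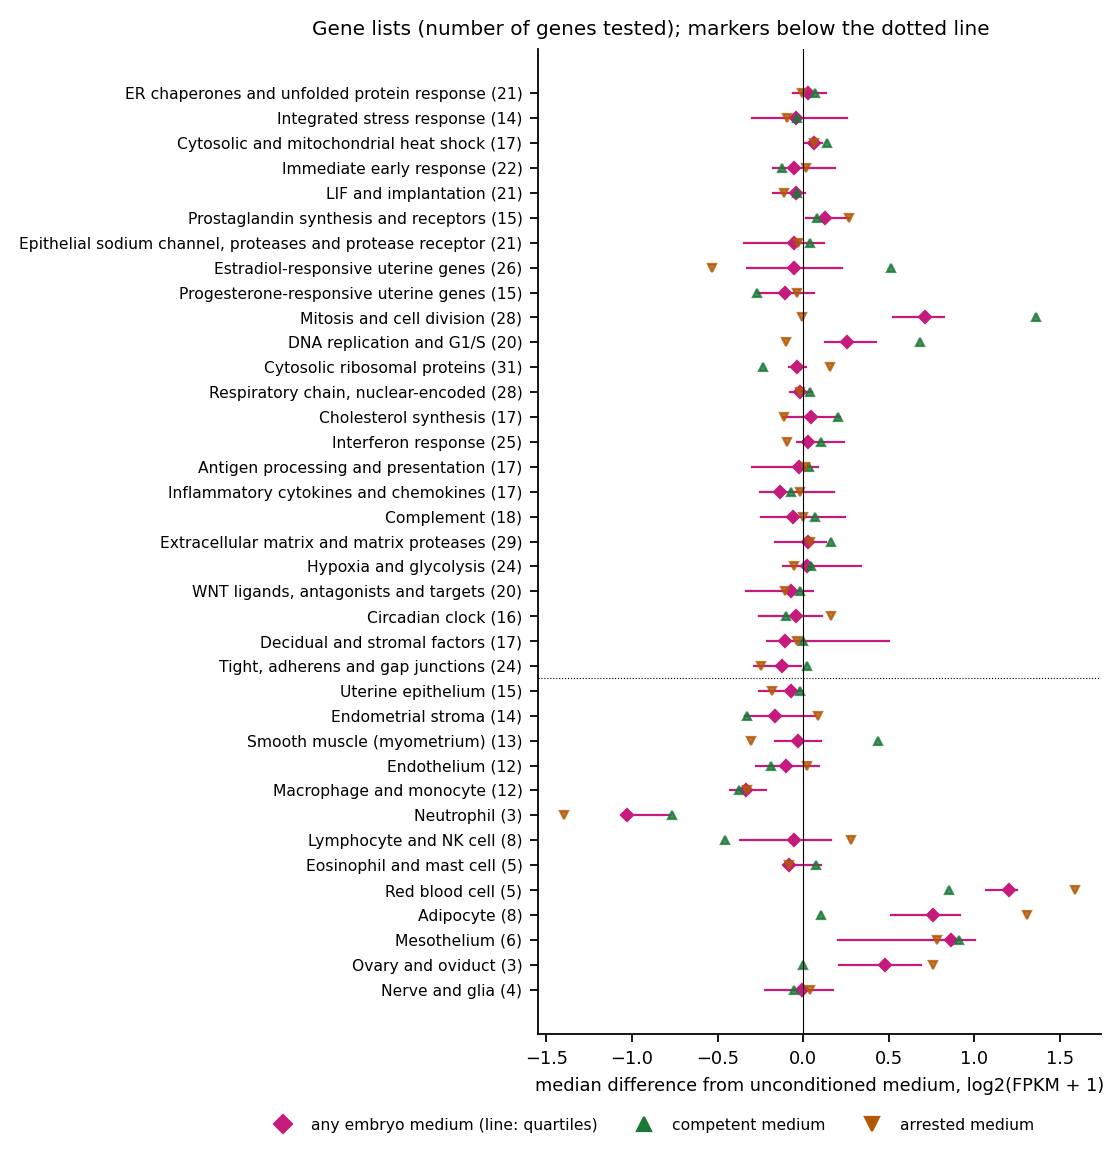
Median difference from unconditioned medium in log2(FPKM + 1) for each gene list with at least 3 tested genes (the number is in brackets): diamonds for both embryo media with lines for the quartiles, upward triangles for competent and downward triangles for arrested medium. Diamonds of the pathway lists lie near 0 except mitosis (0.71) and DNA replication (0.26), where the triangles of the media lie apart.

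Cxcl10, Sfrp4 and Sdha had the smallest p of their lists and did not pass the threshold. In the cytokine and chemokine list 7 of 17 genes were above 0 and 1 had an unadjusted p under 0.05, in the WNT list 7 of 20 and 1, and in the respiratory chain list 12 of 28 and 1, beside 3.2% of all genes. Cxcl10, an interferon-induced chemokine that draws lymphocytes, was at 27.7, 23.2 and 55.1 FPKM in controls, 4.18, 6.84 and 18.0 after competent medium and 24.8, 5.67 and 8.40 after arrested medium. Arrested library 1 overlapped the controls in gene value (-1.71 ± 0.55, limma adjusted p = 0.999). Exon depth did not overlap, at 9.48 to 21.5 in controls and 3.01 to 9.17 after embryo medium (-1.13 ± 0.34). Sfrp4, a secreted WNT antagonist of the uterine stroma, was at 22.3 to 26.5 FPKM in controls and 10.7 to 23.6 after embryo medium (-0.66 ± 0.24, with -0.72 for competent and -0.61 for arrested medium). Sdha, a subunit of succinate dehydrogenase, had gene values of 361, 147 and 423 FPKM in controls and 127 to 164 after embryo medium (-0.92 ± 0.30), with exon depth at -0.06. Without control library 2 its limma adjusted p was 0.010.

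Among genes tied to receptivity, to the sodium channel and to protein folding stress, no difference passed the threshold. Hspa5 differed by -0.45 ± 0.32, Hspa8 by -0.17 ± 0.13 and Atf4 by -0.04 ± 0.12, with 95% intervals of -1.19 to 0.30, -0.46 to 0.12 and -0.30 to 0.23. The transcription factors Ddit3 and Xbp1, which serve the unfolded protein response, differed by -1.02 ± 0.94 and -0.14 ± 0.23, and Herpud1, of the degradation machinery, by 0.18 ± 0.39 (-0.27 in exon depth). Without arrested libraries 2 and 3 Ddit3 differed by -2.54 (limma adjusted p = 0.010), the arrested arm then being library 1 alone, where Ddit3 was listed at 0. Lif was at 0.720 to 2.32 FPKM in controls and 0.473 to 2.27 after embryo medium, and Hbegf at 8.21 to 10.3 and 4.89 to 13.2. Their 95% intervals were -0.71 to 0.76 and -0.84 to 0.49. Ptgs2 was at 0.538 to 0.581 FPKM in controls, 0.550 to 0.708 after competent medium and 1.27, 2.33 and 5.47 after arrested medium (0.66 ± 0.34 for both). The sodium channel subunit Scnn1a differed by 0.12 ± 0.24. Sgk1, a kinase that raises channel activity, differed by -1.04 ± 0.37 in gene value (limma adjusted p = 0.999) and by 0.05 ± 0.25 in exon depth.

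The steroid receptors show what the gene value can miss. Esr1 was listed at 0 FPKM in 8 of 9 libraries and at 16.7 in arrested library 2, whereas exon depth was 33.6 to 40.0 in controls and 32.6 to 41.2 after embryo medium. Pgr was listed at 0 in 6 of 9 libraries, with exon depth of 22.6 to 24.6 in controls and 12.8 to 32.5 after embryo medium. Exon depth differed by 0.01 ± 0.08 for Esr1 and by -0.11 ± 0.26 for Pgr, so neither receptor separated the groups.

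Markers of cell types were read as a check of tissue and content. Uterine epithelium markers summed to 3043 to 3851 FPKM in controls and 2562 to 3828 after embryo medium, with a median difference of -0.07 over 15 genes. Red blood cell genes had a positive difference in 5 of 5 and a median of 1.20, with 4 at a limma p under 0.05, beside 1.43% of all genes in that direction. Their sum was 937 to 1501 FPKM in controls, 748 to 3968 after competent and 2092 to 4843 after arrested medium. The haemoglobin gene Hba-a2 was at 263, 305 and 415 FPKM in controls, 1196, 733 and 225 after competent medium and 1104, 1460 and 633 after arrested medium. Competent library 3 lay below the controls and the other 5 above (1.25 ± 0.50, limma adjusted p = 0.999). Macrophage markers had a negative difference in 11 of 12 (median -0.33) and summed to 323 to 642 FPKM in controls and 333 to 471 after embryo medium. The neutrophil marker S100a9, a calcium-binding alarmin, was at 3.37, 10.2 and 1.47 FPKM in controls and 0.431 to 2.55 after embryo medium (-1.08 ± 0.47). Adipocyte markers had a positive difference in 8 of 8, with medians of 0.76 for both media, 0.10 for competent and 1.31 for arrested medium. They summed to 10.4 to 122 FPKM in controls and 4.69 to 1423 after embryo medium, the highest in arrested library 2. Smooth muscle sums were 2054 to 2245 FPKM in controls, 1858 to 3737 after competent and 1106 to 2817 after arrested medium. Endometrial stroma sums were 2015 to 2403, 1547 to 2122 and 1734 to 3097 FPKM in the same order. Mesothelium markers had a median of 0.86 over 6 genes, 5 above 0 and 1 below, while their sum overlapped between the groups, at 610 to 908 FPKM in controls, 725 to 907 after competent and 682 to 853 after arrested medium. Krt19 is in this list and in that of uterine epithelium, and its part in the sum was not separated. The mesothelial surface protein Msln was at 4.22 to 8.56 FPKM in controls and 6.03 to 27.1 after embryo medium (1.27 ± 0.52). The 10 ovary and oviduct markers, 3 of them tested, summed to 38.1 to 43.7 FPKM in controls and 30.3 to 41.9 after competent medium. Arrested libraries 1, 2 and 3 stood at 39.5, 36.8 and 86.5, the highest being the outlier of the principal component analysis. The part of blood, leukocyte, fat, mesothelial, muscle, stromal, ovary or oviduct RNA in the differences above was not tested.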

How the data were processed

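RNA of mouse uterus was sequenced in 9 libraries, 3 per group. Per the submitters' processing notes, Bowtie 0.12.2, Cufflinks and the mm9 build were used. The Cufflinks release is not given in the sources used here, nor are its settings. FPKM values per transcript were deposited by the authors, with intervals and a coverage signal, and the deposited exon tables give positions.

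A gene value was the sum of FPKM over annotated transcripts, matched to genes through GENCODE vM1 on NCBIM37; 1356 of 92839 transcripts did not match and were not used. Genes averaging 1 FPKM or more over the 9 libraries were tested with limma 3.58.1 in R 4.3.3 on log2(FPKM + 1), all 9 libraries in 1 fit with group means and a mean trend. The contrast was the average of both embryo media minus unconditioned medium, adjusted by Benjamini-Hochberg over all genes, threshold 0.05. Exon depth was the mean, over the exon bases of a gene, of the summed FPKM of all annotated or assembled transcripts that cover each base. Fragments were estimated from coverage, at 100 bases per fragment, and cover counting error only. Short transcripts were given a minimum length in that estimate. Tables were read with Python 3.11.15 and pandas 2.3.3. The fit was tested on simulated data with normal spread around each gene mean. No group was set to 0 there, so that test does not cover calls that rest on groups at 0.

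Members and lists were chosen with earlier results of these data known. The rule named up to 15 non-overlapping genes per direction, called genes first and then those of smallest p, up to 3 members per list, and a set list of genes given whatever their p. Sprr2g, Snord23 and BC037034 fall outside it and were named after their values were seen. Alternatives were other pseudocounts, filters, scalings, gene values and fits, a replicate block, and libraries left out. Voom on estimated fragments, and exon depth and fragments in the overlap count, were added after seeing the data. Of 679 list genes, 562 were tested, 105 matched but were below the filter, and 12 had no match and were not analysed here.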

Additional observations from a re-analysis of the deposited data

Results flagged for a closer look

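Both genes below passed the threshold for the average of the embryo media and also for arrested minus competent medium. They passed the filter on low values only through the arrested libraries, so these p-values are no independent support. Since competent libraries are at 0 for both, the fitted differences depend on the pseudocount and are no folds. For Sprr2g, a cornified envelope precursor, the fitted value of arrested minus competent medium was 6.01 on the log2(FPKM + 1) scale (limma adjusted p = 4.9e-06), with 56.7 to 70.8 FPKM in 3 of 3 arrested libraries and 0 in the 3 competent ones. For Snord23, a small nucleolar RNA, it was 8.37 (limma adjusted p = 9.99e-08), from 1 fragment in each of the 3 arrested libraries and 0 in the competent ones. The voom fit for both media (adjusted p = 0.999) did not use that count of 1 fragment.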

How the results depend on the processing

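The 5 genes past the threshold became 8 with no filter on low values, 1 without genes listed at 0 in part, 2 with the highest transcript alone, 2 by exon depth, 3 in a fit of 2 groups, 77 without arrested libraries 2 and 3, and 0 with voom (403 at an unadjusted p under 0.05), the last chosen after seeing the data. Leaving out 1 library gave 8 to 20. Competent minus control had 6, and 2 at pseudocount 5, 10 unfiltered, 3 without part-zero genes, 0 by exon depth, 12 without arrested libraries 2 and 3, 1 with voom and 4 to 17 with 1 library left out. Arrested minus control had 7, and 1, 3, 108 and 0 without part-zero genes, with the highest transcript, without arrested libraries 2 and 3, and with voom, and 7 to 25 with 1 library left out. Arrested minus competent had 18, and 11 without part-zero genes, 11 with the highest transcript, 77 by exon depth, 10 with no mean trend, 291 without arrested libraries 2 and 3, 6 with voom and 12 to 43 with 1 library left out. Gene lists had 0 called genes, 0 to 2 with 1 library left out and 1 without arrested libraries 2 and 3. The cause was not tested.

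Same-numbered libraries did not deviate together (residual correlation -0.05 to 0.10), so the numbers were not taken as a pairing. A replicate block left 3 genes for both media, 1 for competent, 0.0596 and 0.114 as the limma adjusted p of Ubl4 and BC037034, and 4 genes between the media.

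Directions turned as follows on the log2 scale. With the highest transcript alone, Ubl4 was 0.23, Fam114a2 0.11, Gps1 0.16, Asns 0.0078, Sdha 0.22, Stat2 2.54, Xbp1 0.18 and Lif -0.10. With assembled transcripts, Wdr8 was -0.54, Rfxank 0.20, Herpud1 -0.23, Lif -0.11 and Esr1 -0.32. By exon depth, Slc17a5 was 0.028, Sgk1 0.052, Xbp1 0.058, Herpud1 -0.27, Lif -0.10, Pgr -0.11 and Rfxap -0.0069. With voom, Sgk1 was 0.089, Sdha 0.079, Xbp1 0.11 and Pgr -0.22. Without arrested libraries 2 and 3 Herpud1 was -0.020. With 1 library left out, the values ran from -0.17 to 0.30 for Lif, -0.67 to 1.497 for Pgr, -0.38 to 0.48 for Herpud1, -0.095 to 0.00093 for Atf4 and -0.31 to 0.0048 for Hbegf.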

Other observations

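Class II antigen presentation genes and their regulators were described after their values were seen, and none passed the threshold. The list of antigen processing and presentation genes had a median of -0.02 over 17 genes, 0.04 for competent and 0.01 for arrested medium, with 7 above 0 and 10 below. H2-Eb1, a class II beta chain, was at 81.6 to 103 FPKM in controls and 57.5 to 101 after embryo medium (-0.48 ± 0.17, limma adjusted p = 0.999), and -0.44 in exon depth. H2-Aa and H2-Ab1 differed by -0.47 ± 0.21 and -0.38 ± 0.20. Of the RFX complex that binds class II promoters, Rfx5 was at 13.7, 14.6 and 15.6 FPKM in controls and 7.01 to 12.9 after embryo medium (-0.38 ± 0.17), without overlap in gene value or exon depth. Rfxank was at 4.05 to 4.92 FPKM in controls and 0 to 2.45 after embryo medium (-1.51 ± 0.35), with overlapping exon depth (-0.07), and Rfxap differed by 0.23 ± 0.16. Macrophage markers, which can carry the same genes, had a median of -0.33, and their part in these values was not tested.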
